A study of Mus musculus with 8 samples.

Results

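Fragments of tRNA Glu-TTC, the transfer RNA that reads glutamate codons through the anticodon TTC (UUC in the RNA), were examined in sorted pancreatic β-cells. All sequences that the deposited table names for Glu-TTC were taken, which gave 49 of its 2226 tRNA-derived fragment (tRF) sequences. Male mice of 8 weeks of age were the source of these cells, either db/db (background BKS.Cg-Dock7m+/+LeprdbJ) or wild type (background BKS.Cg-Dock7m+/+), so that both genotypes carried the Dock7m background and only db/db mice carried the leptin receptor mutation. Each genotype had 4 libraries, each from an independent preparation of islets pooled from several animals, and cells were sorted by their autofluorescence, which enriches β-cells. Small RNA was sequenced with unique molecular identifiers, so that a count stands for 1 molecule.

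tRFs are short RNAs cut from tRNAs, and they are grouped by the part of the tRNA they keep. Fragments that begin at the first base (5′ tRFs) come from the D arm side, fragments that end in the CCA tail added to every mature tRNA (3′ CCA tRFs) come from the T arm side, and internal tRFs hold neither end. tRNAs that share an anticodon but differ elsewhere are called isodecoders, and Glu-TTC and Glu-CTC, which both carry glutamate, are isoacceptors of each other. The study asked whether the tRF pool of islet cells differs in obesity and diabetes, for which db/db mice, which lack leptin receptor signalling and overeat, are a model.

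The 49 sequences came from 2 isodecoder forms. They share their first 5 bases and differ at base 6 (C6T, counted from 1 at the 5′ end), and their 3′ CCA tRFs differ at base 66 (G66A), which faces base 6 in the acceptor stem. The form with C6 was joined to G66 and the form with T6 to A66, and all 7 base pairs of that stem can then form in both. T6 could also pair with G66, as U with G in the RNA. The joining was therefore assumed and not read from a whole tRNA. They are called C6 and T6 here, and a fragment is named by its first and last base. The following fragments carry the results below, with the base that tells the forms apart in capitals and written as DNA. The first 4 are the most abundant of their class and form, the 18 nt pair had the widest gap in C6 share between genotypes among the 3 most abundant lengths, T6 47-75 starts further inside the tRNA, and 8-23, which holds neither differing base, was the only Glu-TTC sequence called between genotypes.
C6 1-26: tcccaCatggtctagcggttaggatt
T6 1-26: tcccaTatggtctagcggttaggatt
C6 49-75: cgggttcgactcccggtGtgggaacca
T6 49-75: cgggttcgactcccggtAtgggaacca
C6 1-18: tcccaCatggtctagcgg
T6 1-18: tcccaTatggtctagcgg
T6 47-75: cccgggttcgactcccggtAtgggaacca
8-23: tggtctagcggttagg

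RefSeq lists 8 genes of this tRNA in GRCm38.p6, the build named for these data, each 72 bp long. They are n-TEttc1 at chr1:34434812-34434883, n-TEttc3 at chr3:96346675-96346746, n-TEttc2 at chr3:96387405-96387476, n-TEttc7 at chr7:58399315-58399386, n-TEttc8 at chr9:104408667-104408738, n-TEttc5 at chr13:23463535-23463606, n-TEttc6 at chr14:76152774-76152845 and n-TEttc4 at chr14:79481668-79481739. With CCA added, the mature tRNA has 75 bases, and this length set the positions of the 3′ CCA tRFs. No fragment was assigned to a single gene, since the gene sequences were not used here.

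All 49 fragments were 16 to 30 nt long. The 5′ tRFs numbered 13 of the C6 form and 12 of the T6 form, the 3′ CCA tRFs 9 and 6, and the internal tRFs 9, of which 8 fit both forms and 1 (C6 2-26) fits C6. The 2 groups of ends left a gap, because bases 41 to 45, beyond the anticodon (bases 34 to 36), were covered by no fragment. Of the 49 sequences, 0 lay within a fragment named for another isoacceptor, and 0 ended 1 to 3 bases short of CCA. No sequence of the table had fewer than 4 libraries with 6 counts or more, so rarer fragments are not in it. The libraries held 582165 to 2946290 tRF counts, of which 2217 to 7692 were Glu-TTC. The table holds tRFs alone, so the β-cell label could not be checked against marker genes, and the measurements cannot tell fewer cells of a type from less RNA per cell.

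**Figure D1:**
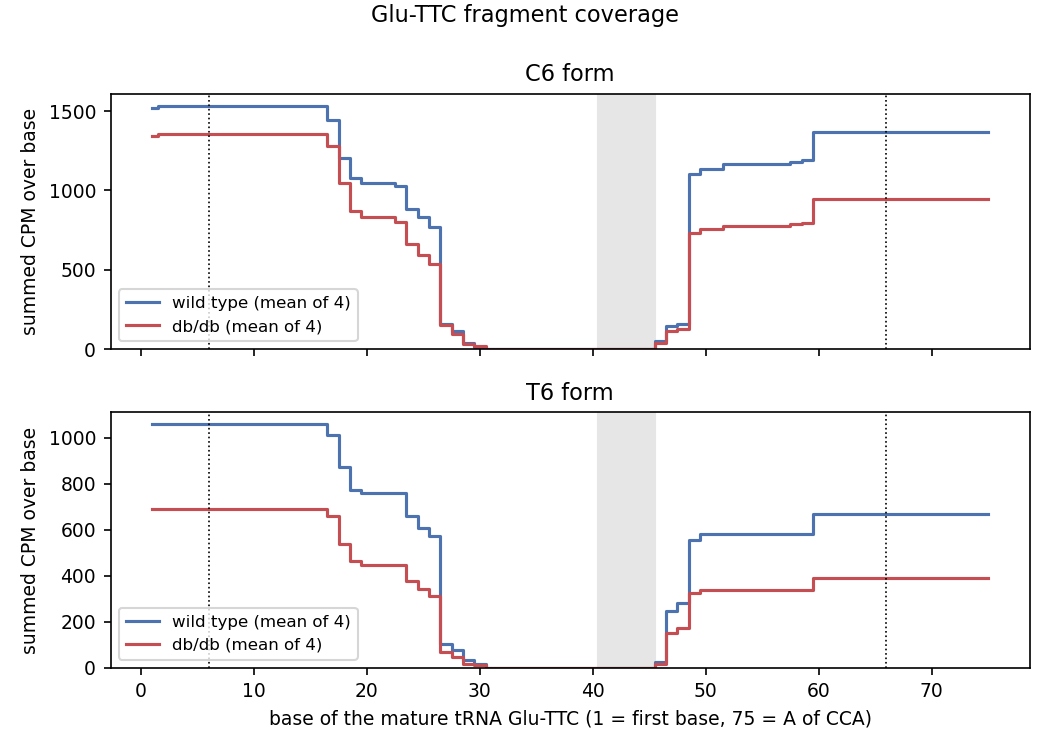
Coverage of the mature tRNA by fragments assigned to the C6 form (top) and the T6 form (bottom). The y axis is the summed CPM of all fragments over a base and the x axis the base, lines are means of 4 wild type and 4 db/db libraries, dotted lines mark bases 6 and 66 and the grey band marks bases 41 to 45. Coverage falls in steps after bases 17 and 26, and steps up again at base 49, in both genotypes.

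Glu-TTC gave a small share of the tRF pool. In the wild type libraries the share of all tRF counts was 0.392%, 0.681%, 0.397% and 0.395%, and in the db/db libraries it was 0.450%, 0.381%, 0.261% and 0.3995%. The ranges overlapped and wild type replicate 2 stood above the rest. The means were 0.466% ± 0.143 (SD, n = 4) and 0.373% ± 0.0799 (SD, n = 4), a difference that did not pass the two-sided exact permutation test (p = 0.4, adjusted p = 0.7 over 7 such tests). Without wild type replicate 2 the difference was -0.0218 percentage points in place of -0.0934. With 4 libraries against 4, 70 assignments exist and the smallest p is 0.029, so that with 7 tests a single comparison could not pass after adjustment.

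Both ends of the tRNA gave a large part of the Glu-TTC counts. 5′ tRFs made up 54.8% ± 16.9 (SD, n = 4) of Glu-TTC counts in wild type and 57.7% ± 5.05 (SD, n = 4) in db/db β-cells (exact permutation p = 0.8, adjusted p = 0.933). 3′ CCA tRFs made up 41.2% ± 17.9 and 38.1% ± 5.23 (SD, n = 4 each; exact permutation p = 0.771, adjusted p = 0.933). The wild type libraries were far apart, with 5′ shares of 69.9%, 36.0%, 68.3% and 45%, while the db/db libraries held 50.8%, 61.6%, 61.3% and 57.2%. Both differences turned sign without wild type replicate 2, to -3.35 and 3.47 percentage points, and without wild type replicate 4, to -0.36 and 0.617. Internal tRFs made up 4.03% ± 1.06 and 4.14% ± 0.969 (SD, n = 4 each).

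Glu-CTC, the other glutamate tRNA of the table with 128 sequences, had another balance of ends. Of its 5′ and 3′ CCA counts, 5.17% to 11.6% per wild type library and 4.76% to 7.16% per db/db library were 5′, against 37.3% to 73.6% and 52.8% to 65.0% for Glu-TTC. The 5′ share of Glu-TTC was the higher in all 8 libraries. The log2 ratio of 5′ Glu-TTC to 5′ Glu-CTC counts, which no library scaling can move, was 2.28, 1.57, 1.62 and 0.99 in wild type and 1.66, 2.53, 2.58 and 1.85 in db/db β-cells. All 8 ratios were above 0, so the 5′ end of Glu-TTC was counted more often than that of Glu-CTC in every library. The genotypes overlapped, with means of 1.61 ± 0.53 and 2.16 ± 0.47 (SD, n = 4 each; exact permutation p = 0.143, adjusted p = 0.333). The difference was 0.335 without wild type replicate 4, in place of 0.543 on the log2 scale. The higher mean ratio in db/db does not stand for a higher 5′ Glu-TTC level. Relative to the scaled tRF total (CPM), the means in wild type and db/db were 2574 and 2031 for 5′ Glu-TTC. For 5′ Glu-CTC they were 818 and 461, and as a family it did not pass (edgeR adjusted p = 0.150).

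The 5′ tRFs formed a ladder of lengths with a peak at 26 nt, which stops 1 base after the D stem (bases 10 to 13 paired with 22 to 25). Smaller peaks stood at 17 to 18 nt, inside the D loop, and at 23 nt, within the 3′ strand of the D stem. No 5′ fragment of 20 or 21 nt was in the table for either form, and 22 nt was present only for C6. At 26 nt, C6 1-26 had levels of 932, 464, 589.5 and 388 CPM (counts relative to the TMM-scaled tRF total of the library, on the CPM scale) in the wild type libraries and 301, 518, 368 and 286 CPM in the db/db libraries. Its groups overlapped, with a log2 fold change of -0.69 ± 0.35 (SE) and an adjusted p of 0.272 over all sequences tested (edgeR quasi-likelihood test). Without wild type replicate 1 this fold change was -0.33, and with library sizes from the deposited log2 values it was -1.12. T6 1-26 had 705, 387, 470 and 324 CPM in wild type and 168, 359, 244 and 202 CPM in db/db β-cells. Of its db/db libraries, only replicate 2 lay within the wild type range. Its log2 fold change was -0.96 ± 0.36 (SE), with an edgeR adjusted p of 0.0896, but its fold change was just short of the 2-fold that a call also required.

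The short 5′ tRFs of the C6 form did not pass the test in either direction. C6 1-17 had 356, 142, 316 and 134 CPM in wild type and 201, 245, 269 and 214 CPM in db/db β-cells, with a log2 fold change of -0.02 ± 0.37 (SE; edgeR adjusted p = 0.981) whose sign turned under 3 of the other settings and without any of 5 single libraries. C6 1-18 had 144, 114, 180 and 74.1 CPM in wild type and 138, 229, 184 and 167 CPM in db/db β-cells. The mean of C6 1-18 was higher in db/db, with a log2 fold change of 0.49 ± 0.36 (SE), and it did not pass the test (edgeR adjusted p = 0.474). The same lengths of the T6 form had negative log2 fold changes, -0.17 ± 0.36 for T6 1-17 and -0.39 ± 0.38 for T6 1-18 (SE; edgeR adjusted p = 0.828 and 0.617). T6 1-17 had 90.4 to 203 CPM in wild type and 96.6 to 152 CPM in db/db β-cells, and T6 1-18 had 52.5 to 130 and 60.9 to 83.0 CPM.

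**Figure D2:**
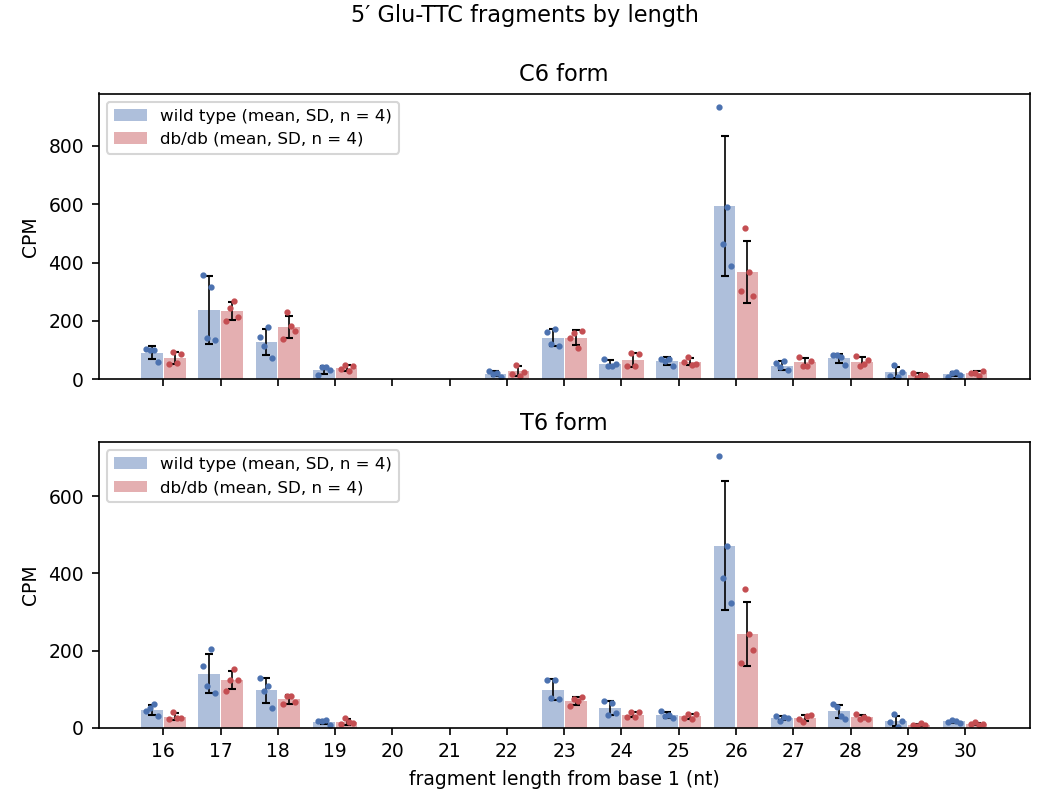
Level of 5′ tRFs of the C6 form (top) and the T6 form (bottom) by length in nt. Bars are means in CPM of 4 libraries, error bars SD and points single libraries of wild type (blue) and db/db (red) β-cells. The 26 nt fragments are the highest in both forms, with C6 means of 594 and 368 CPM and T6 means of 471 and 243 CPM in wild type and db/db.

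The length of the 5′ tRFs was summarised as a count-weighted mean. It was 23.29, 23.31, 22.59 and 23.35 nt in the wild type libraries and 22.73, 22.52, 22.2 and 22.36 nt in the db/db libraries. Wild type replicate 3 was the one wild type library within the db/db range. The means were 23.13 ± 0.366 and 22.45 ± 0.224 nt (SD, n = 4 each), a difference of -0.681 nt that did not pass (exact permutation p = 0.0571, adjusted p = 0.2). Without the 26 nt fragments the difference was -0.212 nt (exact permutation p = 0.6). The share of 26 nt fragments among 5′ counts was 47.4%, 38.2%, 36.9% and 41.0% in wild type and 27.0%, 35.6%, 31.2% and 24.9% in db/db β-cells, which did not overlap and are given as a description. Fragments of 16 to 19 nt held 30.4% ± 3.81 and 37.7% ± 2.68 of 5′ counts (SD, n = 4 each), with overlapping libraries.

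The balance of the 2 forms among 5′ tRFs was the one measure of the 7 that kept the db/db libraries apart from the wild type libraries. The C6 form gave 59.1%, 58.25%, 59.4% and 58.6% of 5′ counts in the wild type libraries and 68.8%, 65.96%, 63.6% and 66.3% in the db/db libraries. All 4 db/db libraries lay above all 4 wild type libraries, and the wild type libraries lay close together. The means were 58.8% ± 0.518 and 66.2% ± 2.12 (SD, n = 4 each), a difference of 7.33 percentage points. The exact permutation test gave p = 0.029, the smallest that it can give, and an adjusted p of 0.2, so the difference did not pass after adjustment. These shares rested on 1366 to 4715 counts per library, and the highest Wilson 95% limit of a wild type library (61.7%) was below the lowest limit of a db/db library (62.2%). Such intervals cover counting error only.

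Leaving out any 1 library gave a difference between 6.46 and 8.18 percentage points. It was not carried by the 26 nt fragments alone: without them the shares were 61.1%, 60.55%, 61.6% and 61.4% in wild type and 70.5%, 69.8%, 65.2% and 68.9% in db/db β-cells, a difference of 7.41 points (exact permutation p = 0.029, adjusted p = 0.2). At each of the 12 lengths present in both forms the mean C6 share was higher in db/db, and at 4 of them (ends at base 18, 24, 26 and 30) the libraries did not overlap. The end at base 30 rests on few counts, with 5 of C6 1-30 and 9 of T6 1-30 in wild type replicate 1. How often such shares do not overlap in other tRNAs was not computed, so this count has no background beside it. At base 18 the C6 share was 52.6%, 54.2%, 62.2% and 58.5% in wild type and 69.4%, 73.4%, 69.0% and 71.2% in db/db β-cells. At base 26, the most abundant length, it was 55.4% ± 1.16 and 60.5% ± 2.54 (SD, n = 4 each). At base 25 the means were closest, 65.1% ± 2.88 and 66.7% ± 4.52. These lengths come from the same libraries and are no independent replicates.

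**Figure D3:**
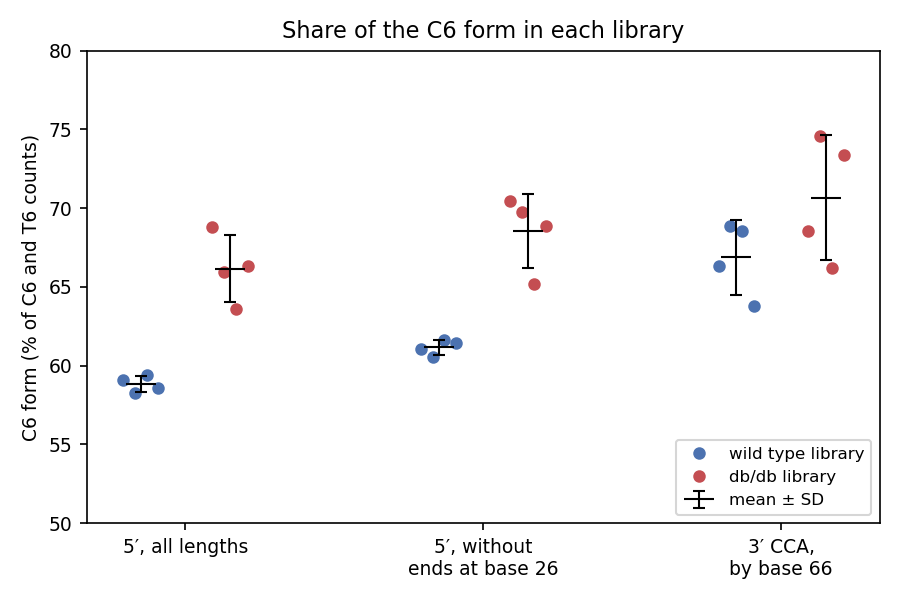
Share of the C6 form among C6 and T6 counts in percent (y axis, from 50 to 80), for all 5′ tRFs, for 5′ tRFs without those that end at base 26, and for 3′ CCA tRFs read by base 66. Points are libraries and bars the mean ± SD of 4. The genotypes are apart in both 5′ sets (58.8% and 66.2% over all lengths) and overlap in the 3′ CCA tRFs.

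**Figure D4:**
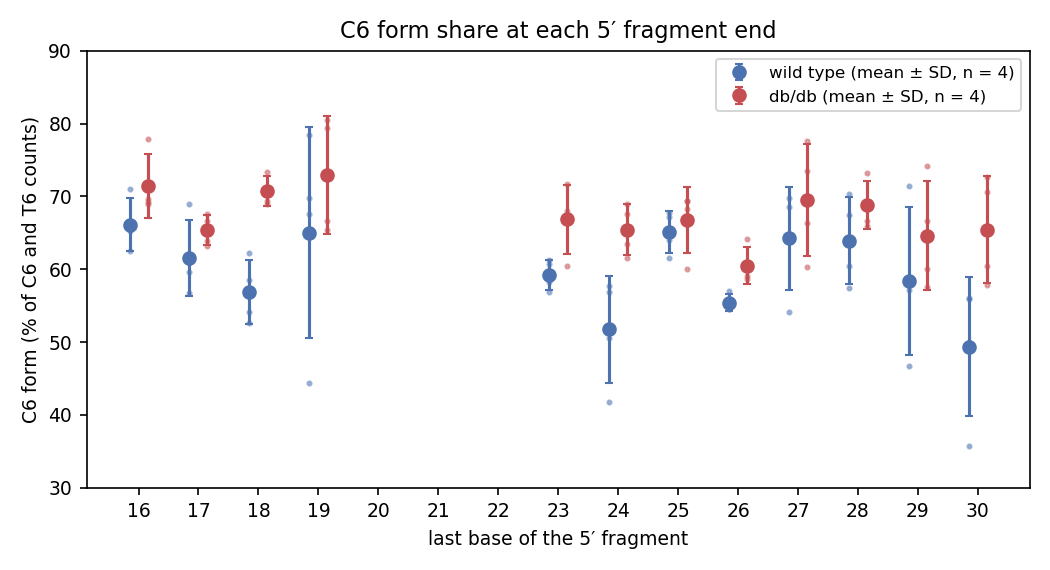
C6 form share in percent (y axis, from 30 to 90) of the 5′ tRFs that end at each base (x axis). Large points are the mean of 4 libraries with SD and small points are libraries. The db/db mean is the higher at all 12 ends, without overlap of libraries at bases 18, 24, 26 and 30. The end at base 30 rests on few counts.

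The 3′ CCA tRFs showed the balance of the forms at the other end of the tRNA. Read by base 66, the C6 form gave 66.3%, 68.9%, 68.55% and 63.8% of 3′ CCA counts in wild type and 68.5%, 74.6%, 66.2% and 73.4% in db/db β-cells. The mean was again the higher in db/db, 70.7% ± 3.95 against 66.9% ± 2.37 (SD, n = 4 each), but the libraries overlapped (exact permutation p = 0.257). At each of the 6 start bases present in both forms the mean C6 share was the higher in db/db, with overlapping libraries at all 6.

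The 2 forms also differed in where their 3′ CCA tRFs began, and this held in both genotypes. In the C6 form, 65.3% ± 9.44 of 3′ CCA counts in wild type and 64.2% ± 3.002 in db/db began at base 49, the second base of the T stem (bases 48 to 52 paired with 60 to 64). In the T6 form that start held 35.85% ± 13.0 and 40.6% ± 6.70, and a start at base 47, just before the stem, held 37.4% ± 9.71 and 34.6% ± 5.65 (SD, n = 4 each). Base 47 held 8.20% ± 3.09 and 8.25% ± 2.78 of the C6 form. In every library base 49 thus held a larger share of the C6 form than of the T6 form, and base 47 a smaller one. Fragments with the same start are identical between the forms but for base 66, as the lines for C6 49-75 and T6 49-75 show. The tRNAs they come from also differ at base 6, and bases 41 to 45 were not read in either form. A start at base 60, the first base of the 3′ strand of the T stem, held similar shares of both, 15.8% and 15.65% of C6 and 15.01% and 13.2% of T6.

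C6 49-75 was the most abundant Glu-TTC sequence, with 6062 counts in all. It had 443, 1941, 477 and 908 CPM in the wild type libraries and 702, 610, 468 and 648 CPM in the db/db libraries. Wild type replicate 2 was above every other library, and the 3 others spanned the db/db range. It gave a log2 fold change of -0.64 ± 0.41 (SE; edgeR adjusted p = 0.411), which was -0.04 without wild type replicate 2. With the library totals implied by the deposited RPM values it was -1.31, and with library sizes from the deposited log2 values -1.63. T6 49-75 had 121, 596, 77.3 and 303.5 CPM in wild type and 171, 168, 140 and 145 CPM in db/db β-cells, with the same replicate on top and a log2 fold change of -0.82 ± 0.46 (SE; edgeR adjusted p = 0.321). Without wild type replicate 2 it was -0.14. T6 47-75, where that replicate stood out less, had 190, 286, 156 and 258 CPM in wild type and 178, 95.7, 160.5 and 113 CPM in db/db β-cells, with a log2 fold change of -0.70 ± 0.35 (SE; edgeR adjusted p = 0.256).

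Of the 49 sequences, 40 passed the filter on low counts and were tested, among 1832 of the whole table. A call needed an edgeR adjusted p below 0.1 and a fold change above 2. Of the 40, 1 was called, lower in db/db, whereas 15% of all tested sequences were called and 9.44% were called lower. DESeq2 also called 1. At an unadjusted p below 0.05 there were 2 of 40, against 21.3% of all sequences. The log2 fold change was below 0 in 32 of the 40 and above 0 in 8, with a median of -0.39 beside 0.00 over all sequences tested, and of -0.22 beside 0.01 without wild type replicate 2. With the library totals implied by the deposited RPM values the medians were -0.75 and -0.36.

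The called sequence was 8-23, an internal tRF that begins after the acceptor stem and fits both forms. It had 30.25, 42.0, 23.5 and 11.6 CPM in the wild type libraries and 11.6, 7.22, 7.07 and 11.55 CPM in the db/db libraries. Wild type replicate 4 was at the level of the higher db/db libraries, and the other wild type libraries were above all of them. Its log2 fold change was -1.49 ± 0.55 (SE), with an edgeR adjusted p of 0.0848. The call was lost without wild type replicate 1 or 2 or any single db/db library (adjusted p of 0.134 to 0.265), with the library names as 2 blocks (0.142) and without a normalisation factor (0.21). The longer fragment from the same start, 8-26, had 110, 97.5, 65.5 and 37.8 CPM in wild type and 46.4, 97.5, 32.4 and 47.1 CPM in db/db β-cells, with a log2 fold change of -0.50 ± 0.44 (SE; edgeR adjusted p = 0.5725). The internal tRF 7-26 gave -0.29 ± 0.54 (SE; edgeR adjusted p = 0.807), with 11.6 to 30.25 CPM in wild type and 9.98 to 32.5 CPM in db/db β-cells.

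The classes and forms differed in how their members lay. Of the 13 tested C6 5′ tRFs, 7 had a log2 fold change above 0 and 6 below, from -0.69 to 0.51 with a median of 0.01. Of the 10 tested T6 5′ tRFs, 1 was above 0 and 9 below, from -0.96 to 0.01 with a median of -0.44. All 7 tested C6 3′ CCA tRFs (-0.64 to -0.26, median -0.40) and all 6 tested T6 3′ CCA tRFs (-1.19 to -0.66, median -0.77) were below 0, as were all 4 tested internal tRFs (median -0.47). Members of a class overlap in sequence and come from the same libraries, so they are no independent replicates. Much of the 3′ CCA difference hung on wild type replicate 2. Without it the 3′ CCA family gave -0.05, C6 49-75 -0.04, T6 49-75 -0.14 and T6 47-75 -0.57. At every length or start tested in both forms, 10 for 5′ and 6 for 3′ CCA tRFs, the log2 fold change of the T6 fragment was the lower, by a median of -0.38 and -0.44. This restates the C6 shares above for single sequences, and library scaling cannot set it, since both forms of a library share it. Of the 40 tested sequences, the CPM of 1 did not overlap between the genotypes, against 17.1% of all tested sequences. This was T6 60-75, chosen here after its values were seen, with 81.85, 124.5, 72.2 and 68.7 CPM in wild type and 66.65, 50.5, 48.25 and 40.9 CPM in db/db β-cells (log2 fold change -0.75 ± 0.38, SE; edgeR adjusted p = 0.265).

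**Figure D5:**
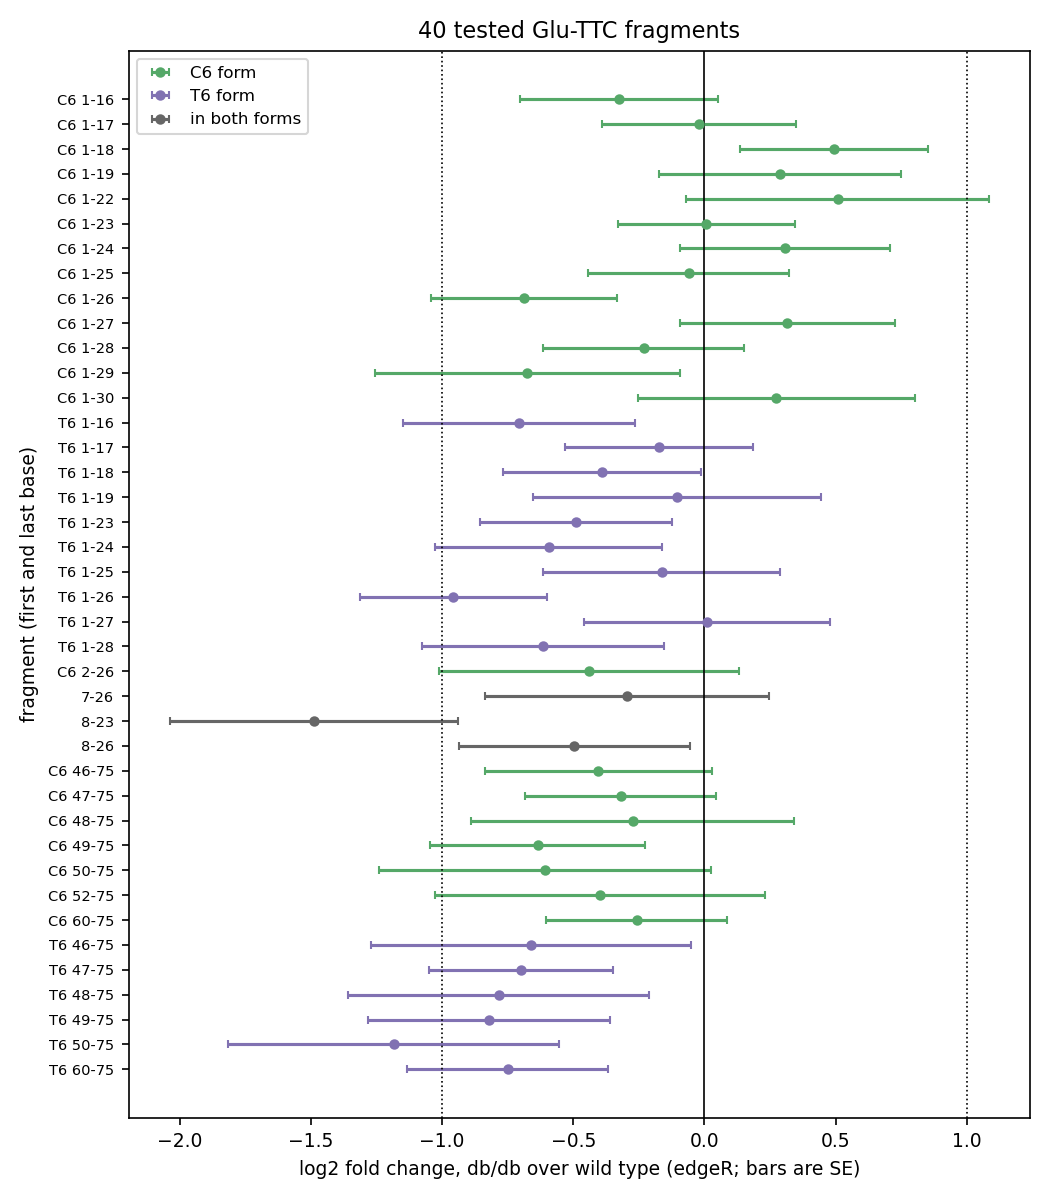
Log2 fold change of the 40 tested Glu-TTC fragments, db/db over wild type (x axis; bars are SE), with 1 line per fragment, named by form, first and last base. Dotted lines mark 2-fold. The T6 5′ fragments and all 3′ CCA fragments lie at or below 0 apart from T6 1-27 at 0.01, and C6 5′ fragments lie on both sides.

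Counts summed over families gave the levels of each end as a whole. Over 116 families (isoacceptor and class, with 5′ tRFs split by their first 8 bases), 19% were called, and of the 4 of Glu-TTC 0 were called by edgeR, 0 by DESeq2 and 0 had an unadjusted edgeR p below 0.05. The C6 5′ family had 1585, 1279, 1550 and 1086 CPM in wild type and 1272, 1697, 1419 and 1392 CPM in db/db β-cells (CPM of the family fit, which has its own scaling). Its libraries were interleaved, with a log2 fold change of 0.07 ± 0.28 (SE; edgeR adjusted p = 0.889), a sign that turned to -0.18 with the scaling of the single sequences. The T6 5′ family had 1096, 917, 1059 and 767 CPM in wild type and 577.5, 876, 812 and 706.5 CPM in db/db β-cells. Only wild type replicate 4 lay within the db/db range, with a log2 fold change of -0.37 ± 0.28 (SE; edgeR adjusted p = 0.4435). The 3′ CCA family gave -0.45 ± 0.38, with 3698 CPM in wild type replicate 2 and 959 to 2145 CPM in the other libraries, and the internal family gave -0.16 ± 0.29, with 107 to 216.5 CPM (SE; edgeR adjusted p = 0.5055 and 0.768). Without wild type replicate 2 the 3′ CCA family gave -0.05, and the internal family gave -0.34 without db/db replicate 2 and 0.00 without db/db replicate 3.

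Starts inside the first bases were rare. Of Glu-TTC counts that began at bases 1 to 4, 0.918%, 0.483%, 0.696% and 0.355% began at bases 2 to 4 in the wild type libraries and 0.717%, 0.437%, 0.611% and 0.675% in the db/db libraries. The ranges overlapped (means of 0.613% ± 0.2475 and 0.610% ± 0.123, SD, n = 4 each; exact permutation p = 0.971, adjusted p = 0.971). All of these counts were C6 2-26, which ends at the same base as the main 5′ fragment.

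Among 104 families of tRNAs for other amino acids, the 3 whose log2(CPM + 1) followed the summed 5′ Glu-TTC level most closely over the 8 libraries were Gly-CCC 5′ (Pearson r = 0.965), Leu-TAG 5′ (r = 0.921) and Val-CAC internal (r = 0.870). The libraries share their scaling, so these values are a description. Gly-CCC 5′ was the more abundant, with mean levels of 4405 and 2493 CPM in wild type and db/db, against 770 and 454 CPM for Leu-TAG 5′ and 16.3 and 14.2 CPM for Val-CAC internal.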

How the data were processed

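Per the labels and the study's methods, total RNA of sorted β-cells was made into QIAseq miRNA libraries, and each molecule was counted once through its identifier. The genome build was GRCm38.p6, and bowtie 1 placed the reads on GtRNAdb's mature tRNAs with 0 mismatches. A minimum read length above 16 nt is stated, although the table also holds sequences of 16 nt. The authors deposited, for each tRF sequence and library, a count, an RPM value rounded to whole numbers (treated as a score) and a normalised log2 value (its method: not given in the sources used here). A column of theirs giving a direction of change was not used. The RPM and log2 values served only to derive library totals for alternatives.

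The quasi-likelihood test of edgeR 4.0.16 (R 4.3.3) was run on the counts of 8 libraries after TMM scaling and filterByExpr (10 counts, total of 15), with genotype as its sole term. Benjamini-Hochberg adjustment ran over all sequences or families tested, and the procedure was tested on simulated data. For shares, lengths and ratios a two-sided exact permutation test was used, adjusted over 7 tests. An eighth planned share, of 3′ fragments short of CCA, had no counts. A 5′ fragment shares its first 8 bases with at least 5 others of its isoacceptor and these bases lie further inside none, a 3′ CCA fragment ends in CCA, and the rest are internal. Positions came from overlaps of at least 12 bases and the RefSeq gene length, since tRNA gene sequences were not used here. Sequences named are the 3 most abundant of each 5′ form, of the 3′ CCA and of the internal class, and those called. The members and lists were chosen with earlier results of these data known. DESeq2 1.42.0 and the other settings were alternatives. Depth was 582165 to 2946290 tRF counts per library. Replicate numbers follow the order of the labels, which name no batch.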

Additional observations from a re-analysis of the deposited data

Results flagged for a closer look

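Of 46 groups of 4 libraries examined, 2 held a library that stood far from the other 3 by Dixon's test at the 95% level. Chance alone gives such a library in about 5% of groups. The Glu-TTC share of all tRF counts was 0.681% in wild type replicate 2, against 0.392% to 0.397% in the other wild type libraries, and without it the difference between the genotypes was -0.0218 in place of -0.0934 percentage points. The count-weighted mean length of 5′ Glu-TTC fragments was 22.59 nt in wild type replicate 3, against 23.29 to 23.35 nt in the other wild type libraries, and without it the difference between the genotypes was -0.863 nt in place of -0.681 nt.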

How the results depend on the processing

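No paired analysis was possible because wild type and db/db labels carry no common replicate numbers. The count of called Glu-TTC sequences, 1 of 40, became 0 without a normalisation factor, 0 with library names A to D and F to I as 2 blocks, 0 at an adjusted p below 0.05 and 2 without the limit on fold change, and it ranged from 0 to 2 when 1 library was left out. Without wild type replicate 2 the call passed from 8-23 to T6 1-26 (-1.07, adjusted p of 0.0898). Without wild type replicate 3 the called sequences were 8-23 and T6 49-75, and without wild type replicate 4 they were 8-23 and T6 1-26. The count of called families was 0 under all 20 alternatives. The 8-23 adjusted p ranged from 0.0349 to 0.265 over its alternatives, and that of T6 1-26 from 0.0543 to 0.436. Among shares, the 5′ share turned to -3.35 and -0.36 percentage points and the 3′ CCA share to 3.47 and 0.617 without wild type replicates 2 and 4, in ranges of -3.35 to 7.94 and -8.41 to 3.47 over all libraries left out. The bases 2 to 4 share turned to 0.0989, 0.0248 and 0.0548 points without wild type replicate 1, wild type replicate 3 and db/db replicate 2, in a range of -0.089 to 0.0989. The C6 1-17 log2 fold change turned to 0.15 with no factor, 0.07 with no filter and 0.07 with 10 counts in 4 libraries, and leaving out 1 library moved it between -0.22 and 0.31, with T6 1-17 between -0.33 and 0.13. The log2 fold changes of C6 1-18 (0.31 to 0.77), T6 1-18 (-0.59 to -0.16), 8-26 (-0.80 to -0.24) and 7-26 (-0.61 to -0.02) also moved by over 1.5 times when 1 library was left out. The C6 5′ family turned to -0.01 with no factor, -0.50 with the implied totals, -0.66 with sizes from the log2 values and -0.18 with the scaling of the single sequences, and leaving out 1 library moved it between -0.07 and 0.15. With the implied totals and the log2 sizes the T6 5′ family gave -0.92 (unadjusted p of 0.0399, adjusted 0.14) and -1.05, the 3′ CCA family -1.22 and -1.49, and the internal family -0.82 and -1.11. With the scaling of the single sequences these 3 families gave -0.62 (unadjusted p of 0.056, adjusted 0.191), -0.61 and -0.39. The median log2 fold change of all sequences moved to 0.14 with no factor, -0.36 with the implied totals and -0.51 with the log2 sizes, beside -0.25, -0.75 and -0.97 for Glu-TTC. With the latter scalings the median of all families was -0.57 and -0.70, and with that of the single sequences -0.20. The cause of these shifts was not tested. The C6 share and the mean length, whose other settings included ones chosen after seeing the data (1 form alone for the length, 3′ CCA by base 66 for the share, and without base 26 for both), kept their direction in all that were run for them. The scaling of the single sequences was also chosen after seeing the data and was run for the families alone. Low counts limit the rarest fragments, which had as few as 64 counts in all.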
